A study of Homo sapiens with 10 samples.

Results

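The genes examined were 57 that copy DNA or drive cells into S phase, named as a fixed list of symbols and followed through the 6 RNA-seq libraries of T47D cells. All 57 were present in both deposited count tables, which together list 19695 genes with a count, and all 57 passed the filter on low counts in each comparison. T47D is an established human luminal breast cancer cell line. The cells were transfected for 72 h with control siRNA (2 libraries), siRNA against *TRPS1*, an atypical GATA factor that represses transcription (2 libraries), or siRNA against *CHD4*, the ATPase of the NuRD chromatin-remodelling complex (2 libraries). The labels call the *CHD4* reagent an siRNA, whereas the study's RNA-seq methods call it an shRNA. In the same line TRPS1 was mapped by chromatin immunoprecipitation in 2 libraries against 2 input libraries, deposited as 1 list of 1844 peaks. Silencing left part of each target in place, and no source states that the 2 libraries of a group came from separate cultures, so p-values measure the spread between these libraries only.

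Replication starts when the origin recognition complex, CDC6 and CDT1 load the ring-shaped MCM2-7 helicase onto DNA in G1, a step called licensing. At the start of S phase CDC45 and the GINS complex turn MCM2-7 into a working helicase, primase and the polymerases copy both strands, and the clamp PCNA, its loader RFC and single-stranded DNA-binding RPA keep the fork moving. E2F factors, released from RB by cyclin-dependent kinases, switch most of these genes on together, which is why their transcripts are widely used to read how many cells of a culture are cycling. In bulk RNA fewer cells in S phase and less RNA of these genes per cell cannot be told apart.

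E2F factors recognise short GC-rich letters near the start of their target genes, and promoters of 4 of the genes below are shown. Of the genes that hold such letters close to the start site, they are the 4 with the largest change over its standard error in either comparison with control. The letters searched were TTTCCCGC, TTTCGCGC, TTTGCCGC and TTTGGCGC on both strands, from 250 bases before to 50 bases after each RefSeq start site (GRCh38.p14). The sequences give the 120 bases that end 1 base before the start, on the gene's own strand, with the E2F letters or their reverse complement in capitals. *TYMS* makes thymidylate, *E2F2* is an activating E2F, *UNG* removes uracil from DNA and *GINS2* is a subunit of the GINS complex. In that order they lie at chr18:657533-657652 on the plus strand, chr1:23531234-23531353 on the minus strand, chr12:109098052-109098171 on the plus strand and chr16:85688955-85689074 on the minus strand. Those of *TYMS*, *E2F2* and *GINS2* precede the gene, and that of *UNG* precedes a start site inside the annotated gene, whose first base is 109097597.
TYMS: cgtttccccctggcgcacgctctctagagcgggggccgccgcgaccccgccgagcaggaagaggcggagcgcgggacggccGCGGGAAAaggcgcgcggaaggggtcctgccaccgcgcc
E2F2: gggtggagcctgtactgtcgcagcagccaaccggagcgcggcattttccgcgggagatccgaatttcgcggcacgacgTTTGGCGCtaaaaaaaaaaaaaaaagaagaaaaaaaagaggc
UNG: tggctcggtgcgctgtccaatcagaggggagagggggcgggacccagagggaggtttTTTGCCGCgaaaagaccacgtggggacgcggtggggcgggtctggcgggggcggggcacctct
GINS2: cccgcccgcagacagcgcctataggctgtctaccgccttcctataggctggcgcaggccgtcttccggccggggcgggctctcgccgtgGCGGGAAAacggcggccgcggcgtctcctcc

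The capitals began 39 bases before the *TYMS* start, 42 before that of *E2F2*, 63 before that of *UNG* and 31 before that of *GINS2*. Of the 49 genes that matched a RefSeq promoter, 27 held E2F letters in at least 1 of their windows (55.1%), against 6.57% of the 9824 tested genes that matched. Counted by window rather than by gene, the shares were 41.8% of 67 windows and 4.82% of 14287. The letters were most frequent among the licensing genes (7 of 9 matched, *CDC6*, *CDT1*, *GMNN*, *MCM2*, *MCM3*, *MCM6* and *MCM7*) and least frequent among the nucleotide supply genes, where *TYMS* alone of 4 held them. *MCM4*, *MCM5*, *GINS4*, *POLD3*, *RPA2*, *RPA3*, *E2F8* and *CCNE2* were not matched.

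The silencing itself was read first, in CPM, which are counts relative to the library total, here scaled with edgeR's TMM factors over the 6 libraries. *TRPS1* was at 1448 and 2274 CPM in control replicates 1 and 2 and at 1169 and 723 CPM in *TRPS1* siRNA replicates 1 and 2, so replicate 1 of the knockdown lay just under the lower control. *CHD4* was at 301 and 286 CPM in the controls and at 96.0 and 54.4 CPM in the *CHD4* siRNA replicates. In both knockdowns replicate 1 therefore had more of the targeted transcript than replicate 2. The same order held where the gene was not targeted. *TRPS1* was at 2455 and 1591 CPM in *CHD4* siRNA replicates 1 and 2, and *CHD4* at 303 and 269 CPM in *TRPS1* siRNA replicates 1 and 2. Whether silencing was weaker in replicate 1 was not tested. Library totals ran from 10333138 to 14668358 counts, and the lowest count of any of the 57 genes in any library was 42 (*ORC6*, *TRPS1* siRNA replicate 1). Control replicate 1 stood apart from the rest: across 13269 genes its log2 CPM correlated with the other libraries at 0.855 to 0.878, whereas those 5 correlated with each other at 0.941 to 0.975. Each comparison with control is for that reason also given against each control library alone. The luminal identity of the line was seen in *KRT8*, *KRT18*, *KRT19*, *ESR1* and *GATA3*, of which the lowest value in any library was 188 CPM (*ESR1*), while *KRT5* and *PTPRC*, which mark basal cells and leukocytes, reached at most 0.192 and 0.241 CPM.

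To address how the replication genes responded to loss of *TRPS1* or *CHD4*, each knockdown was compared with the 2 control libraries. Upon silencing *TRPS1*, 56 of 57 replication genes had a log2 fold change below 0, where 51.5% of the 12921 genes tested did, and their median was −0.75 against −0.02 for all genes. At an unadjusted p under 0.05 in edgeR's quasi-likelihood test 9 of the 57 were lower (3.97% of all genes) and 0 were higher (3.01%), and 8 of the 9 had a fold change over 2 (3.17%). Upon silencing *CHD4*, 55 of 57 lay below 0 (51.5% of 12918 genes), again with a median of −0.75 against −0.02. There 13 were lower at p under 0.05 (3.17%), all with a fold change over 2 (2.85%), and 0 were higher (2.79%). No gene (0 of all tested) passed a Benjamini-Hochberg adjusted p of 0.05 in either comparison, and the adjusted p of the replication genes ran from 0.659 to 0.984 for *TRPS1* and from 0.792 to 0.991 for *CHD4*. DESeq2 on the same counts also called 0 of the 57 for *TRPS1* and 1 (*TYMS*) for *CHD4*. The share of all genes that DESeq2 called is not given here, so that call is not read as particular to the set. Both knockdowns were set against the same control libraries, so their shared direction is not independent evidence. An exact two-sided permutation test of 2 against 2 libraries cannot go below p = 0.3333.

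**Figure D1:**
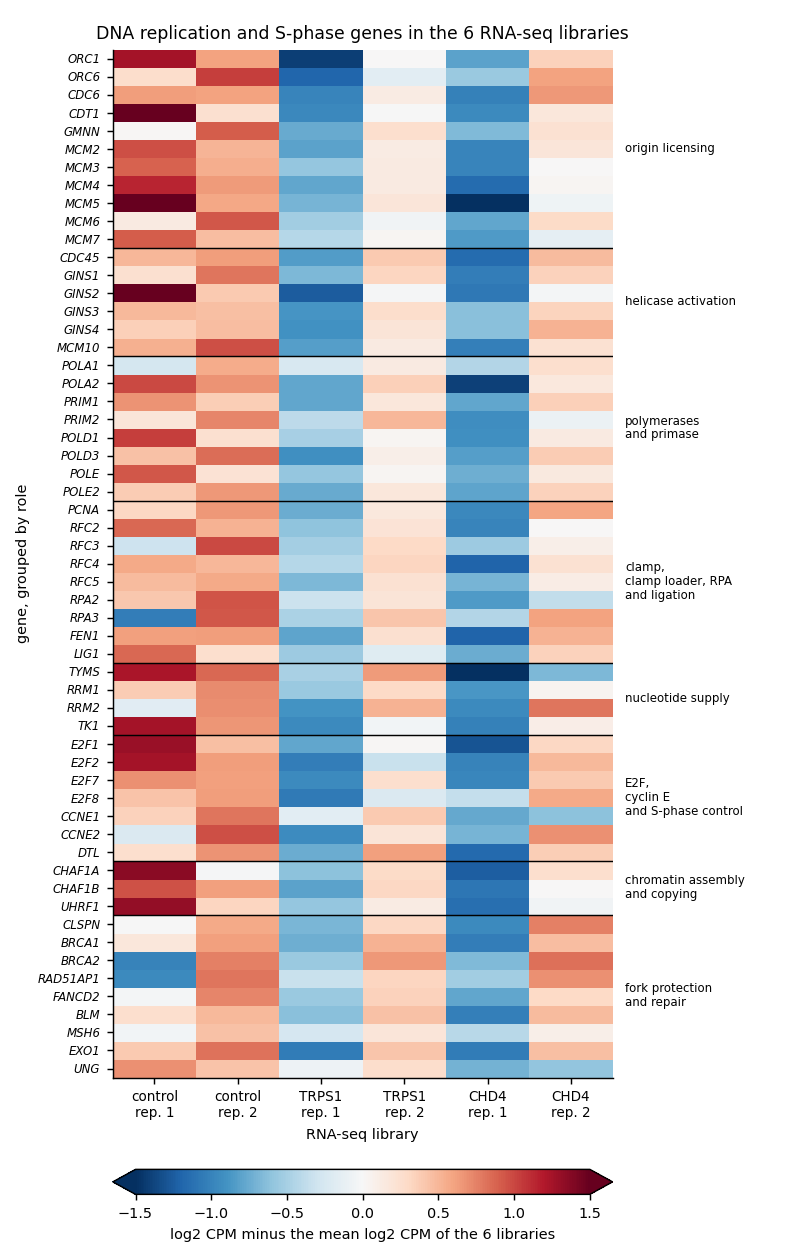
Level of the 57 replication genes in the 6 RNA-seq libraries, as log2 CPM minus the gene's mean log2 CPM over the 6 libraries (colours saturate at −1.5 and 1.5), with genes in rows grouped by role and libraries in columns. The columns of replicate 1 of both knockdowns are the lowest for 49 of 57 genes, while the replicate 2 columns sit near the middle of the scale.

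**Figure D2:**
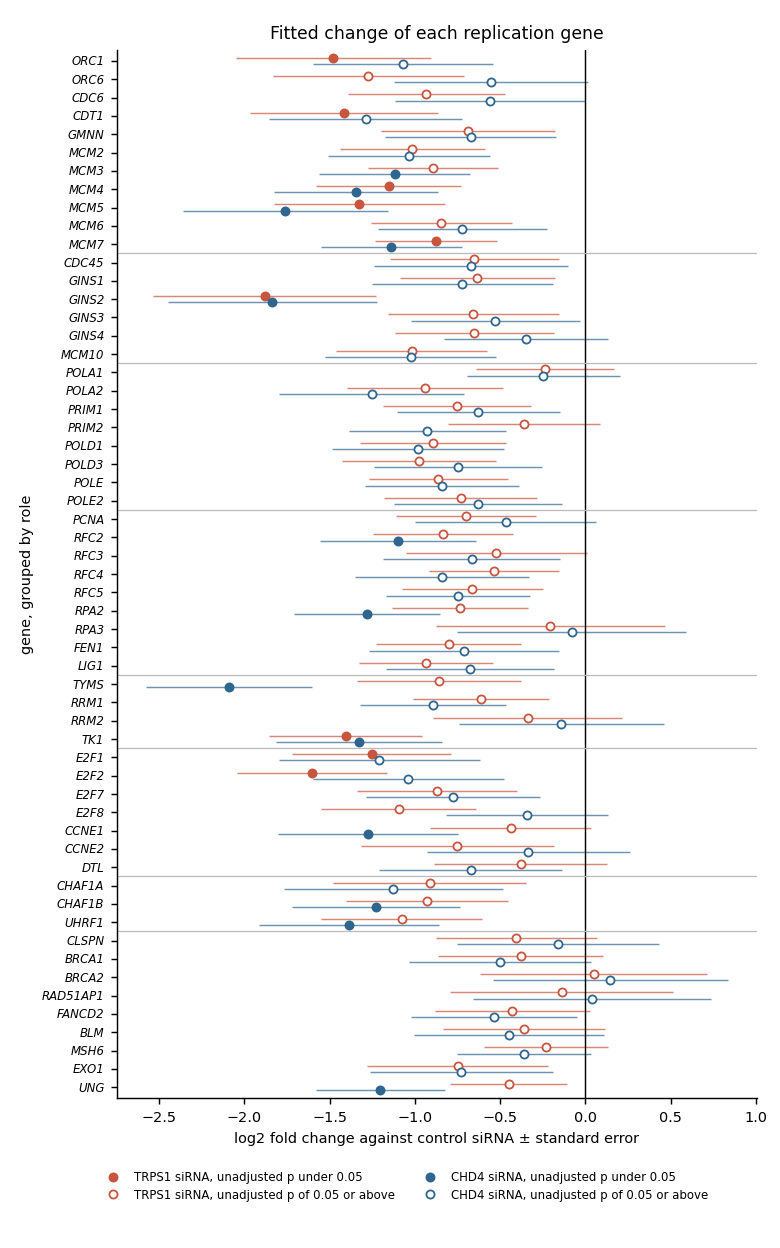
Log2 fold change against control siRNA (x axis, ± standard error) for each of the 57 genes (y axis, grouped by role) upon silencing *TRPS1* (red) and *CHD4* (blue), with filled circles for an unadjusted p under 0.05. The points range from −1.88 to 0.05 for *TRPS1* and from −2.09 to 0.15 for *CHD4*.

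All 11 licensing genes had a log2 fold change below 0 in both comparisons, with medians of −1.01 and −1.07, and 5 passed p under 0.05 upon *TRPS1* silencing (*ORC1*, *CDT1*, *MCM4*, *MCM5* and *MCM7*) and 4 upon *CHD4* silencing (*MCM3*, *MCM4*, *MCM5* and *MCM7*). *MCM5*, a subunit of the helicase ring, was at 85.5 and 43.9 CPM in control replicates 1 and 2, at 18.1 and 33.3 CPM upon *TRPS1* silencing and at 10.0 and 27.9 CPM upon *CHD4* silencing. All 4 knockdown libraries were below both controls, with fitted log2 fold changes of −1.33 (SE 0.50, adjusted p = 0.659) and −1.76 (SE 0.60, adjusted p = 0.792). *MCM4*, also part of the ring, read 499 and 352 CPM in the controls, 132 and 248 CPM upon *TRPS1* silencing and 102 and 231 CPM upon *CHD4* silencing (log2 −1.15, SE 0.42, and −1.34, SE 0.48). *MCM7*, another subunit, was at 234 and 173 CPM in the controls, 92.9 and 127 CPM upon *TRPS1* silencing and 69.4 and 114 CPM upon *CHD4* silencing (log2 −0.88, SE 0.36, and −1.14, SE 0.41). In *MCM3* the groups were likewise apart, at 279 and 220 CPM in the controls, 101 and 166 CPM, and 76.1 and 152 CPM (log2 −0.89, SE 0.38, and −1.12, SE 0.44). *MCM6* differed from the 5 other ring subunits in the controls, where replicate 1 was the lower one (71.2 against 123 CPM), and its *CHD4* siRNA libraries (38.0 and 79.4 CPM) overlapped with them.

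Of the loaders, *ORC1*, the largest subunit of the origin recognition complex, was at 32.1 and 20.6 CPM in the controls, 5.09 and 13.6 CPM upon *TRPS1* silencing and 7.76 and 17.1 CPM upon *CHD4* silencing (log2 −1.48, SE 0.57, adjusted p = 0.659, and −1.07, SE 0.53, adjusted p = 0.792). *CDT1*, which brings the helicase to origins, was at 201 and 83.0 CPM in the controls, 35.8 and 69.9 CPM upon *TRPS1* silencing and 36.2 and 79.2 CPM upon *CHD4* silencing. Replicate 2 of both knockdowns thus came close to control replicate 2, and without control replicate 1 the *TRPS1* change of *CDT1* shrank from −1.42 to −0.64. *CDC6*, the other loader, had replicate 2 of the *CHD4* knockdown at 60.5 CPM, above both controls (59.4 and 58.8 CPM), while replicate 1 was at 19.2 CPM.

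Among the genes that activate the helicase, *GINS2* had the largest fitted change of the 57 upon *TRPS1* silencing and passed p under 0.05 in both comparisons. It was at 261 and 87.0 CPM in the controls, 28.1 and 65.9 CPM upon *TRPS1* silencing and 31.6 and 65.4 CPM upon *CHD4* silencing. The fold changes were −1.88 (SE 0.65, adjusted p = 0.659) and −1.84 (SE 0.61, adjusted p = 0.792). Control replicate 1 set much of their size, since without it they were −0.87 and −0.82 (adjusted p = 0.229 and adjusted p = 0.404 by the same edgeR test), and neither passed p under 0.05. The other GINS subunits did not share that control value: *GINS1* (61.5 and 91.2 CPM), *GINS3* (17.4 and 17.0 CPM) and *GINS4* (29.5 and 31.8 CPM) had log2 fold changes between −0.72 and −0.35. *MCM10*, which helps start unwinding, was at 71.0 and 95.6 CPM in the controls, 27.7 and 54.1 CPM upon *TRPS1* silencing and 24.0 and 57.4 CPM upon *CHD4* silencing, and its groups did not overlap in either comparison (log2 −1.02 in both, SE 0.44 and 0.50, with no p under 0.05).

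None of the 8 polymerase and primase genes passed p under 0.05 in either comparison with control. Their medians were −0.81 and −0.79. *POLA2*, the accessory subunit of polymerase alpha, was at 136 and 110 CPM in the controls, 40.0 and 87.5 CPM upon *TRPS1* silencing and 26.0 and 76.6 CPM upon *CHD4* silencing, so all 4 knockdown libraries were below both controls. *POLA1*, the catalytic subunit of the same enzyme, was at 71.5 and 126 CPM in the controls and at 63.5 to 102 CPM in the knockdown libraries, and its groups overlapped. *POLE*, the leading-strand polymerase, read 459 and 277 CPM in the controls, 160 and 244 CPM upon *TRPS1* silencing and 144 and 265 CPM upon *CHD4* silencing, with replicate 2 of each knockdown just under the lower control. *POLD3*, a subunit of polymerase delta, was at 58.1 and 76.5 CPM in the controls, 22.6 and 45.4 CPM upon *TRPS1* silencing and 24.1 and 55.5 CPM upon *CHD4* silencing. *PRIM2*, the large primase subunit, was at 42.2 and 61.9 CPM in the controls, and both *CHD4* siRNA libraries (19.5 and 35.0 CPM) were below them, while *TRPS1* siRNA replicate 2 (52.4 CPM) was not.

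In the group of clamp, loader, RPA and ligation genes all 9 were below 0 in both comparisons, 0 passed p under 0.05 upon *TRPS1* silencing, and *RFC2* and *RPA2* did upon *CHD4* silencing. *RFC2*, a subunit of the clamp loader, was at 87.5 and 69.3 CPM in the controls, 31.6 and 55.8 CPM upon *TRPS1* silencing and 24.3 and 48.4 CPM upon *CHD4* silencing (log2 −1.10, SE 0.46, adjusted p = 0.792 for *CHD4*). *RPA2*, the middle subunit of RPA, was at 41.9 and 61.1 CPM in the controls, 25.4 and 36.2 CPM upon *TRPS1* silencing and 17.6 and 24.5 CPM upon *CHD4* silencing (log2 −1.28, SE 0.43, adjusted p = 0.792 for *CHD4*). Both groups lay below the controls in these genes. *LIG1*, which seals lagging-strand fragments, was at 73.8 and 48.1 CPM in the controls and 27.7 and 35.8 CPM upon *TRPS1* silencing, and one *CHD4* siRNA library (51.6 CPM) was above the lower control. *PCNA*, the clamp itself, was at 168 and 212 CPM in the controls, and replicate 2 of the *CHD4* knockdown (204 CPM) fell between them while replicate 1 was at 69.2 CPM. *RPA3*, the smallest RPA subunit, showed the widest log2 ratio between the controls of the 57 genes (1.95, from 18.6 and 72.3 CPM), and all 4 knockdown libraries (27.5 to 57.6 CPM) lay inside it.

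Of the 4 nucleotide supply genes 1 passed p under 0.05 upon *TRPS1* silencing (*TK1*) and 2 upon *CHD4* silencing (*TK1* and *TYMS*). *TK1*, which salvages thymidine, was at 143 and 95.4 CPM in the controls, 31.0 and 58.7 CPM upon *TRPS1* silencing and 29.8 and 64.8 CPM upon *CHD4* silencing (log2 −1.41, SE 0.45, adjusted p = 0.659, and −1.33, SE 0.49, adjusted p = 0.792). *TYMS*, the source of new thymidylate and a target of fluorouracil, was at 38.8 and 30.2 CPM in the controls, 11.9 and 25.9 CPM upon *TRPS1* silencing and 5.61 and 10.5 CPM upon *CHD4* silencing. It had the largest change of the 57 genes upon *CHD4* silencing (log2 −2.09, SE 0.49, adjusted p = 0.792) and did not pass p under 0.05 upon *TRPS1* silencing (−0.86, SE 0.48, adjusted p = 0.665). *RRM2*, the S-phase subunit of ribonucleotide reductase, was at 109 and 199 CPM in the controls, 66.2 and 177 CPM upon *TRPS1* silencing and 63.8 and 215 CPM upon *CHD4* silencing, and neither comparison separated the groups.

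Of the 7 E2F and S-phase control genes 2 were lower at p under 0.05 upon *TRPS1* silencing (*E2F1* and *E2F2*) and 1 upon *CHD4* silencing (*CCNE1*). *E2F2* was at 65.1 and 42.2 CPM in the controls, 13.4 and 21.8 CPM upon *TRPS1* silencing and 13.7 and 38.3 CPM upon *CHD4* silencing, and its difference upon *TRPS1* silencing had the smallest p of the 57 genes in that comparison (log2 −1.60, SE 0.44, adjusted p = 0.659). *E2F1*, the founding activator, was at 115 and 63.5 CPM in the controls, 27.1 and 47.3 CPM upon *TRPS1* silencing and 19.1 and 57.6 CPM upon *CHD4* silencing (log2 −1.25, SE 0.47, adjusted p = 0.659, and −1.21, SE 0.59, adjusted p = 0.792). *CCNE1*, the cyclin that starts S phase with CDK2, was at 9.55 and 13.1 CPM in the controls, 6.73 and 9.87 CPM upon *TRPS1* silencing and 4.40 and 4.90 CPM upon *CHD4* silencing. It passed p under 0.05 upon *CHD4* silencing only (log2 −1.27, SE 0.53, adjusted p = 0.792), and the difference between the knockdowns is tested below. *CCNE2*, its paralogue, varied from 34.1 to 77.7 CPM between the controls and overlapped with them in both knockdowns.

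Of the 3 genes that carry chromatin and its marks through replication, *UHRF1*, which brings DNA methylation to new strands, was at 148 and 74.2 CPM in the controls, 39.9 and 65.1 CPM upon *TRPS1* silencing and 27.2 and 57.4 CPM upon *CHD4* silencing. *CHAF1B*, a subunit of the histone chaperone CAF-1, was at 40.5 and 32.1 CPM in the controls, 12.0 and 25.8 CPM upon *TRPS1* silencing and 9.82 and 21.0 CPM upon *CHD4* silencing. Both passed p under 0.05 upon *CHD4* silencing (log2 −1.39, SE 0.53, and −1.23, SE 0.49, adjusted p = 0.792 for both) and neither did upon *TRPS1* silencing (−1.08 and −0.93). *CHAF1A*, the large CAF-1 subunit, had controls of 93.7 and 36.1 CPM, and replicate 2 of both knockdowns (44.7 and 43.6 CPM) lay between them.

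Fork protection and repair genes had the medians nearest 0 among the roles, −0.38 and −0.45, and 1 of 9 lay below both controls in each knockdown, where 21.3% and 19.7% of all genes did. That gene was *UNG*, at 98.0 and 82.1 CPM in the controls, 57.9 and 73.4 CPM upon *TRPS1* silencing and 37.4 and 40.4 CPM upon *CHD4* silencing (log2 −0.45, SE 0.34, adjusted p = 0.701, and −1.20, SE 0.38, adjusted p = 0.792). *EXO1*, a nuclease of mismatch repair, was at 70.2 and 94.1 CPM in the controls, 25.9 and 71.2 CPM upon *TRPS1* silencing and 25.8 and 72.8 CPM upon *CHD4* silencing, so that replicate 2 of both fell within the control range. *BRCA2*, which acts in the repair of broken DNA, was the one gene with a fold change above 0 in both comparisons (0.05 and 0.15, SE 0.67 and 0.69), and its controls differed widely, 25.3 against 85.7 CPM. *RAD51AP1*, a repair factor, was at 5.21 and 17.5 CPM in the controls and at 7.01 to 16.2 CPM in the knockdown libraries.

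Counted over all roles, 38 of the 57 genes had both *TRPS1* siRNA libraries below both controls (21.3% of all genes tested) and 33 had both *CHD4* siRNA libraries below them (19.7%). Both counts rest on the same 2 control libraries. Against control replicate 2 alone all 57 genes had a fitted change below 0 in both knockdowns, with medians of −0.75 and −0.78, and 28 were lower at p under 0.05 upon *TRPS1* silencing (10.9% of all genes) and 13 upon *CHD4* silencing (6.24%). Against control replicate 1 alone 49 of 57 were below 0 in both, with medians of −0.66 and −0.70, 24 and 22 genes were lower at p under 0.05 (26.5% and 21.4% of all genes), and 3 (*RPA3*, *BRCA2* and *RAD51AP1*) and 1 (*RPA3*) were higher (29.0% and 23.6%). With 1 control library these fits take the spread from the knockdown pair and assume that the lone control varies as they do.

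The libraries of each knockdown differed from each other in every replication gene. Replicate 1 was below replicate 2 in both knockdowns for 57 of 57 replication genes, where 34.0% of 13269 genes had that order. For 49 of the 57 both replicate 1 knockdown libraries were below all 4 other libraries (9.43% of all genes), the exceptions being *POLA1*, *RPA2*, *RPA3*, *TYMS*, *CCNE1*, *BRCA2*, *RAD51AP1* and *UNG*. The median log2 ratio of replicate 2 over replicate 1 was 0.91 upon *TRPS1* silencing (0.34 to 1.46 over the genes), 1.13 upon *CHD4* silencing (0.11 to 1.75) and 0.11 in the controls (−1.58 to 1.95). It was above 1 for 20 genes upon *TRPS1* silencing (2.10% of all genes) and for 40 upon *CHD4* silencing (4.08%). All 57 genes together took 0.537% and 0.514% of the counts in the controls, 0.229% and 0.436% in the *TRPS1* knockdown, and 0.191% and 0.456% in the *CHD4* knockdown.

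Each knockdown library was then set against each control library. *TRPS1* siRNA replicate 1 had a median log2 ratio of −1.36 to control replicate 1 and of −1.33 to control replicate 2, and *CHD4* siRNA replicate 1 of −1.42 and −1.55. For replicate 2 of the *TRPS1* knockdown these medians were −0.35 and −0.40, and for that of the *CHD4* knockdown −0.29 and −0.32. Below a log2 ratio of −1 to control replicate 2 were 46 of 57 genes in *TRPS1* siRNA replicate 1 (5.37% of all genes) and 52 in *CHD4* siRNA replicate 1 (6.35%), but 1 gene in *TRPS1* siRNA replicate 2 (2.30%, *ORC6*) and 4 in *CHD4* siRNA replicate 2 (2.67%, *TYMS*, *CCNE1*, *RPA2* and *UNG*). In replicate 2 of the knockdowns 56 and 50 of 57 genes were below 0 against that control (49.8% and 50.1% of all genes). Against control replicate 1 the counts were 39 and 35 of 57 (48.8% and 48.9%).

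**Figure D3:**
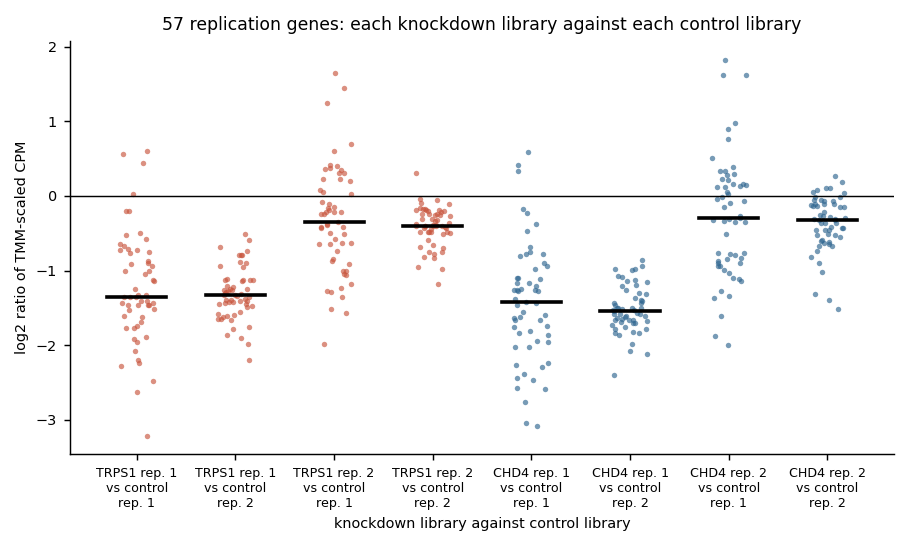
Log2 ratio of TMM-scaled CPM (y axis) of each knockdown library to each control library (x axis), with 1 point per replication gene and a bar at the median of the 57. The 4 columns of replicate 1 have medians from −1.55 to −1.33, and the 4 columns of replicate 2 from −0.40 to −0.29.

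When replicate 1 of the knockdown was left out, 0 of 57 genes passed p under 0.05 in either comparison (0.336% and 0.406% of all genes tested were lower) and the medians were −0.36 and −0.27. When replicate 2 was left out instead, 6 and 14 passed (0.814% and 0.978%), and the medians were −1.29 and −1.45. Several other values moved with this order. Replicate 1 of each knockdown had the higher level of its targeted transcript, and also of the other knockdown's target, as given above. The 10 most abundant genes took 12.7% and 12.4% of the counts in replicate 1, against 9.42% and 8.67% in replicate 2 and 7.13% and 9.23% in the controls. Their part in the difference was not tested.

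The genes differed in how strongly they followed this order. Upon *CHD4* silencing the widest gaps between replicates were those of *RRM2* (log2 ratio 1.75), *FEN1*, the flap nuclease (1.72), and *CLSPN*, the adaptor of the replication checkpoint (1.70). *EXO1* had the widest gap upon *TRPS1* silencing (1.46), followed by *RRM2* (1.41) and *ORC1* (1.40). *UNG* had the narrowest in both (0.34 and 0.11), and *CCNE1* had the next narrowest upon *CHD4* silencing (0.15). Genes with and without E2F letters in their promoter had similar gaps: the median was 0.90 over the 27 with them and 0.95 over the 22 without them for *TRPS1*, and 1.07 and 1.17 for *CHD4*. Their median changes against control were −0.84 and −0.71 for *TRPS1*, and −0.72 and −0.81 for *CHD4*.

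The same order was seen in genes of the next cell cycle phase and less in other genes of replication. 30 of 30 mitosis genes had replicate 1 below replicate 2 in each knockdown, with median gaps of 0.85 and 1.09, close to those of the 57. Further replication machinery (38 genes, among them constitutive subunits) had median gaps of 0.50 and 0.66, other nucleotide supply genes (15) of 0.28 and 0.37, and RB-E2F and G1/S regulators (30) of 0.29 and 0.32. Luminal markers (12) had medians of 0.04 and −0.36, and all genes of −0.02 and −0.00.

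**Figure D4:**
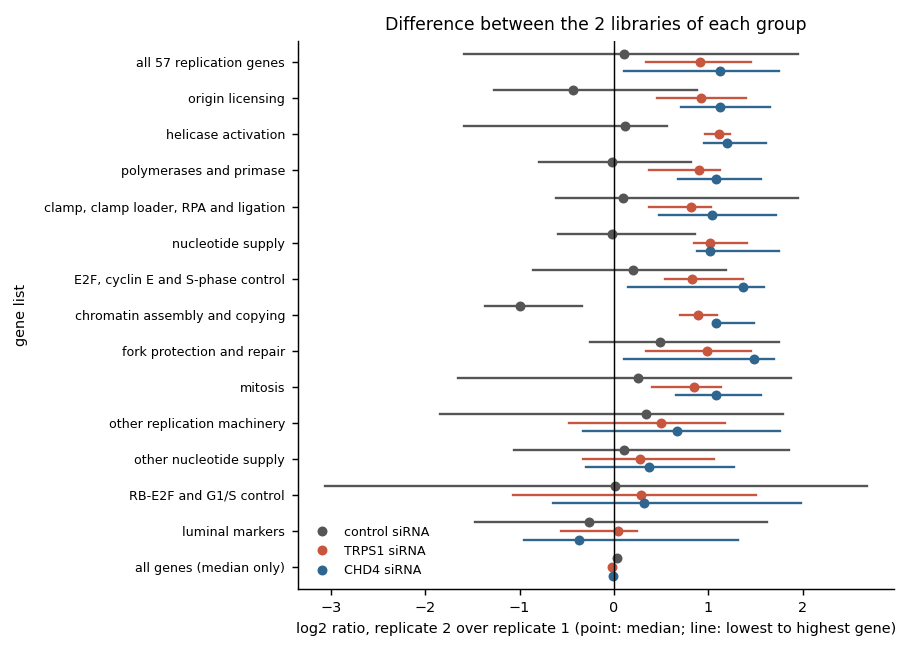
Log2 ratio of replicate 2 over replicate 1 (x axis) within control siRNA, *TRPS1* siRNA and *CHD4* siRNA for the replication genes, their 8 roles, 5 other gene lists and all genes (y axis). Points are medians and lines run from the lowest to the highest gene of a list, and for the 57 replication genes and the mitosis genes both knockdown lines lie wholly above 0.

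In other gene lists the counts below are to be read against 51.5% of all genes below 0 in each comparison, and 3.97% and 3.17% lower at p under 0.05 upon *TRPS1* and *CHD4* silencing. Of 30 mitosis genes 28 and 30 were below 0 upon *TRPS1* and *CHD4* silencing, and 11 and 3 were lower at p under 0.05. *AURKA*, the spindle kinase, was at 246 and 211 CPM in the controls, 59.0 and 97.9 CPM upon *TRPS1* silencing and 64.3 and 102 CPM upon *CHD4* silencing (log2 −1.53, SE 0.39, and −1.45, SE 0.40). Further replication machinery had 8 and 3 of 38 genes lower, among them *POLE3*, a histone-fold subunit of polymerase epsilon (286 and 193 CPM in the controls, 79.5 and 106 CPM, and 68.5 and 119 CPM), and *RPA1*, the large RPA subunit, upon *TRPS1* silencing (212 and 237 CPM in the controls, 112 and 124 CPM). Other nucleotide supply had 3 and 1 of 15 lower, with *NME1*, a nucleoside diphosphate kinase, in both. None of these lists had a gene higher at p under 0.05 in either comparison.

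Among 30 RB-E2F and G1/S genes, 8 were lower at p under 0.05 upon *TRPS1* silencing and 6 upon *CHD4* silencing. *CCND1*, cyclin D1, was at 591 and 421 CPM in the controls, 225 and 220 CPM upon *TRPS1* silencing and 211 and 205 CPM upon *CHD4* silencing (log2 −1.18, SE 0.33, adjusted p = 0.659, and −1.28, SE 0.36, adjusted p = 0.792). Its replicate 1 was not the lower one in either knockdown. *CDK4*, its kinase partner, was at 279 and 197 CPM in the controls, 114 and 105 CPM upon *TRPS1* silencing (log2 −1.12, SE 0.34) and 153 and 143 CPM upon *CHD4* silencing. *CDK2*, the partner of cyclin E, was at 273 and 157 CPM in the controls and 60.4 and 106 CPM upon *TRPS1* silencing. Upon *CHD4* silencing it was at 52.7 and 75.4 CPM (log2 −1.74, SE 0.44). *CDKN1A*, the CDK inhibitor p21, was at 210 and 95.9 CPM in the controls and 53.0 and 69.6 CPM upon *TRPS1* silencing. Upon *CHD4* silencing it was at 56.0 and 73.7 CPM (log2 −1.23, SE 0.47). Both *CDK2* and *CDKN1A* were lower at p under 0.05 in each knockdown.

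The luminal markers moved in the same comparisons, and their part in the change of the replication genes was not tested. 5 of 12 were lower at p under 0.05 in each knockdown (*KRT8*, *KRT18*, *KRT19*, *XBP1* and *SPDEF*), and their summed level was 16420 and 12949 CPM in the controls, 7098 and 6911 CPM upon *TRPS1* silencing and 8057 and 5857 CPM upon *CHD4* silencing. Basal markers summed to 27.1 and 26.5 CPM in the controls and to 44.5 to 55.5 CPM in the knockdown libraries, most of it *ACTA2* and *MYLK*. *VIM* was at 17.3 and 2.24 CPM in *TRPS1* siRNA replicates 1 and 2. Only 3 and 2 of the 8 basal markers passed the filter upon *TRPS1* and *CHD4* silencing, and none of these passed p under 0.05 against control. Fibroblast markers summed to 61.2 to 157 CPM, nearly all of it *COL1A1*, and leukocyte markers to 5.96 to 12.4 CPM.

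To separate the knockdowns without the control libraries, *CHD4* siRNA was compared with *TRPS1* siRNA directly. The 57 genes were split evenly, 29 below 0 and 28 above (50.2% and 49.8% of 13143 genes), with a median of −0.01 against −0.00 for all genes. At p under 0.05 3 were lower upon *CHD4* silencing (7.33% of all genes) and 0 were higher (8.07%), and 4 had both *CHD4* siRNA libraries below both *TRPS1* siRNA libraries (23.8%). Since 3 of 57 is a smaller share than that of all genes, the count says nothing particular about the set, and the genes are given for their values. With the replicate number as a block, which sets same-numbered libraries against each other, 14 were lower and 6 higher at p under 0.05. The shares of all genes were then 17.1% and 18.0%. The labels state no shared culture behind those numbers.

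**Figure D5:**
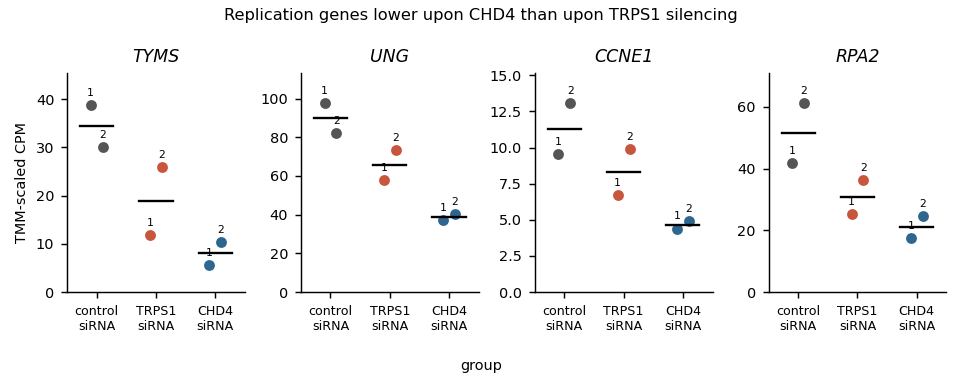
TMM-scaled CPM (y axis, from 0) of *TYMS*, *UNG*, *CCNE1* and *RPA2* in the 6 libraries (x axis, by group), with points numbered by replicate and a line at the mean of the 2 libraries. In each gene both *CHD4* siRNA points lie below both *TRPS1* siRNA points and below both control points.

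*UNG* had the smallest p of the 57 (log2 −0.75, SE 0.18, adjusted p = 0.160), from the levels of 57.9 and 73.4 CPM upon *TRPS1* silencing and 37.4 and 40.4 CPM upon *CHD4* silencing. *TYMS* was lower as well, with 5.61 and 10.5 CPM against 11.9 and 25.9 CPM (log2 −1.23, SE 0.46, adjusted p = 0.290). *CCNE1* was at 4.40 and 4.90 CPM against 6.73 and 9.87 CPM (log2 −0.83, SE 0.31, adjusted p = 0.282). These 3 genes with *RPA2* are also the 4 with a log2 ratio below −1 to control replicate 2 in *CHD4* siRNA replicate 2. They belong by definition to the 8 exceptions described above, because their *CHD4* siRNA replicate 2 lies below *TRPS1* siRNA replicate 1. Without *TRPS1* siRNA replicate 2 the change of *TYMS* was −0.54 (adjusted p = 0.811 by edgeR), that of *CCNE1* −0.50 and that of *UNG* −0.54, and 0 of the 57 were lower at p under 0.05 (3.54% of all genes).

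*RPA2* was at 25.4 and 36.2 CPM upon *TRPS1* silencing and at 17.6 and 24.5 CPM upon *CHD4* silencing, without passing the test (log2 −0.55, SE 0.26, adjusted p = 0.391). In the other direction the farthest were *E2F8*, a repressing E2F (log2 0.75, SE 0.41, with 6.82 and 12.2 CPM upon *TRPS1* silencing and 11.0 and 21.1 CPM upon *CHD4* silencing), and *ORC6*, the smallest ORC subunit (log2 0.71, SE 0.50, with 4.04 and 8.29 CPM, and 6.27 and 14.1 CPM). Without a block neither passed p under 0.05 (adjusted p = 0.455 and adjusted p = 0.560 by edgeR). Within each replicate number both genes were higher upon *CHD4* silencing. With the replicate number as a block both were higher at p under 0.05 (18.0% of all genes) and *RPA2* was lower (17.1%). Of 30 RB-E2F and G1/S genes 3 were higher upon *CHD4* silencing at p under 0.05 (*E2F3*, *CDK4* and *E2F6*; 8.07% of all genes) and 2 lower (*CDKN2B* and *MYC*; 7.33%). *E2F3*, an activating E2F, was at 45.7 and 43.7 CPM upon *TRPS1* silencing and 72.6 and 69.9 CPM upon *CHD4* silencing (log2 0.68, SE 0.15, adjusted p = 0.137), and *CDK4* was higher upon *CHD4* silencing as well (log2 0.44), while *CDKN2B*, the CDK inhibitor p15, was at 20.9 and 9.87 CPM upon *TRPS1* silencing and 4.86 and 7.72 CPM upon *CHD4* silencing (log2 −1.26, SE 0.43).

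To find out whether TRPS1 lay at these genes, its peaks were set against their RefSeq start sites, since the submitters' notes give hg38 for the peaks. Of the 49 genes with a matched start site, 2 had a peak within 5 kb (4.08%), against 4.67% of the 9824 tested genes with one. *POLA1* had a peak over its start (chrX:24693756-24693971) and so did *BLM*, a helicase that resolves entangled DNA (chr15:90717036-90717390). Within 50 kb there were 5 (10.2% against 13.7% of tested genes), adding *FEN1* at 22115 bp, *CDT1* at 39924 bp and *E2F1* at 45602 bp. Over gene bodies with 5 kb on either side, where all 57 could be placed, the third gene was *RPA3* (chr7:7640425-7641239), which made 3 of 57 (5.26%) against 8.08% of tested genes.

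Neither *POLA1* nor *BLM* passed p under 0.05 in the comparisons with control. *CDT1* and *E2F1* were lower at p under 0.05 upon *TRPS1* silencing, but their nearest peaks (39924 and 45602 bp) lay beyond the 5 kb used to place a peak at a gene. *FEN1*, also beyond 5 kb (22115 bp), and *RPA3*, with a peak inside the gene, were not lower at that threshold. *POLA1* had log2 fold changes of −0.24 (SE 0.40) and −0.25 (SE 0.45), and *BLM*, at 20.3 and 24.0 CPM in the controls, had −0.36 (SE 0.47) and −0.45 (SE 0.56). The GATA motif, searched on either strand as GATAA or GATAG after an A or a T, was in the promoter windows of 3 of 49 replication genes (6.12%, *BRCA1*, *EXO1* and *RFC3*), against 19.5% of tested genes. The peak list gives no read depth or replicate, so the absence of a peak says only that none was called.

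Counts of 31 of the 57 genes could include reads of another gene, because their annotated spans overlap one and no source states whether strand was used in counting. For 13 of them the overlapping gene codes for a protein, among them *TYMS* with *ENOSF1*, *GINS2* with *GSE1*, *MCM7* with *AP4M1*, *ORC1* with *PRPF38A* and *UHRF1* with *ARRDC5*.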

How the data were processed

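Counts per gene were deposited in 2 tables that share the control libraries, and the authors made them by aligning rRNA-depleted RNA-seq reads with STAR and counting with HTSeq (0.9.0 per the labels). The annotation and any use of strand in counting are not given in the sources used here. The peaks were called by the authors with MACS2 (2.1.1) after BWA alignment to hg38. The deposited peak positions carry no height and come as 1 list. Tables of 18984 and 18973 genes were joined by symbol, a gene absent from one being taken as 0 in its own libraries.

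Each comparison of 2 against 2 libraries was fitted across all genes above 2 CPM in at least 2 of the 4, after the study's filter, with edgeR (4.0.16) TMM factors and its quasi-likelihood F-test, a prior count of 0.125 and Benjamini-Hochberg adjustment. The standard error is the size of the log2 fold change over the square root of F. Levels in CPM were scaled over all 6 libraries and are not per length, so genes were not ranked by level. With 10333138 to 14668358 counts per library, 3 counts correspond to 0.197 to 0.288 CPM. The scripts were tested on simulated data. R 4.3.3, DESeq2 1.42.0, limma 3.58.1, Python 3.11.15 and matplotlib 3.10.9 were used. The genes and lists were chosen with earlier results of these data known. Full statistics were given for the 2 genes of each role with the largest change over its error and for genes at an unadjusted p under 0.05, and for at most 4 genes of each other list. Other genes were named after their values were seen. Promoters and start sites are from RefSeq (GRCh38.p14), and a peak was placed at a gene within 5 kb. Alternatives were a likelihood ratio test, DESeq2, other scalings, other filters, all 6 libraries in one fit, a prior count of 2, the replicate number as a block, and each library left out.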

Additional observations from a re-analysis of the deposited data

How the results depend on the processing

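Upon *TRPS1* silencing the 9 genes lower at p under 0.05 became 16 with the likelihood ratio test (5.46% of all genes), 17 with DESeq2 (5.86%), 3 with library sizes alone (2.36%), 20 without the filter (4.68%) and 18 with the replicate block (4.11%). Leaving out 1 library gave 0 to 28 lower and 0 to 3 higher, with medians from −1.29 to −0.36. Upon *CHD4* silencing the 13 became 8 with library sizes alone (1.87%) and 23 without the filter (4.22%), and leaving out 1 library gave 0 to 22 lower, 0 to 1 higher and medians from −1.45 to −0.27. Between the knockdowns, no filter gave 1 higher, the replicate block 14 lower and 6 higher (17.1% and 18.0% of all genes), and leaving out 1 library 0 to 19 lower, 0 to 9 higher and medians from −0.73 to 0.58. The number of peaks within 50 kb was 5. The cause of these shifts was not tested. Library sizes alone moved the median of all genes to 0.10 and 0.11 against control.

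*TYMS* passed an adjusted p of 0.05 upon *CHD4* silencing with the likelihood ratio test and DESeq2, and with *GINS2* without the filter. The shares of all genes passing in those settings are not given here, so these calls are not read as particular to the replication genes. The replicate numbers mark no shared culture in the labels, so pairing was not used. Deviations of same-numbered libraries correlated at 0.05 and 0.01 for *TRPS1* and *CHD4* against control, but at 0.61 between the knockdowns. In that last comparison the fit without a block counts the shared replicate difference as spread. With the block 14 of the 57 replication genes passed an adjusted p of 0.05 between the knockdowns, as did 3372 of all 13143 genes tested. The count therefore says nothing particular about the set, and genes are named for their values. The 14 included *ORC6* and *E2F8*, higher upon *CHD4* silencing (adjusted p = 0.0232 and adjusted p = 0.00248 by edgeR), and *RPA2*, lower (adjusted p = 0.00437).

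Directions against control held for the genes with full statistics in every alternative. Between the knockdowns, leaving out 1 library turned the log2 fold change of 9 genes, which then ranged from −0.65 to 0.049 for *MCM7*, −0.42 to 0.85 for *GINS3*, −0.37 to 0.99 for *GINS4*, −1.28 to 0.39 for *POLA2*, −0.37 to 0.70 for *LIG1*, −0.79 to 0.23 for *RRM1*, −0.94 to 0.39 for *CHAF1B*, −0.93 to 0.12 for *UHRF1* and −0.38 to 0.13 for *MSH6*. In these fits the lone library was assumed to vary like the other group. The lowest count of a replication gene was 42. How depth and the number of libraries limited the calls was not tested.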
